A study of Mus musculus with 24 samples.

Results

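Integrins, talin and vinculin are the proteins that fasten a cell's actin skeleton to the matrix around it. 10 genes were taken by symbol from the deposited count table: the integrin alpha subunits Itga1, Itga5, Itga7, Itga8 and Itgav, the beta subunits Itgb3 and Itgb5, and the cytoplasmic adhesion proteins Tln1, Vcl and Ilk. They are 10 of the 41128 genes listed, and all 10 passed the count filter that left 16316 genes for testing. Total RNA had been sequenced from mouse aortas to ask what the beta catalytic subunit of calcineurin (Ppp3cb) does in the vascular response to angiotensin II (AngII). The 24 libraries fall into 8 groups of 3: Ppp3cb knockout (KO) or wildtype (WT) mice, AngII-treated or control, female or male. The line is B6,129S6-Ppp3cbtm1Jmk/J and the mice were 5 months old. The deletion is not described as limited to any cell type, and the part of the gene that it removes is not stated. Treated mice received AngII from osmotic minipumps for 4 weeks, at a rate of 500 ng per kg and minute; whether controls were given a pump is not stated. The titles number the 3 libraries of a group as replicates, so p-values measure the spread between these libraries.

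An integrin pairs an alpha with a beta chain that spans the membrane. Outside the cell it grips matrix proteins such as fibronectin, collagen, laminin and vitronectin, and inside the cell its beta tail is bound by talin, which switches the integrin to its active form and ties it to actin. Under tension talin unfolds and recruits vinculin, which strengthens the link. In the artery wall these adhesions carry force between smooth muscle cells and the elastic and collagen fibres of the media. The beta 1 chain, which can pair with every alpha chain measured here, is the product of Itgb1. This gene is listed at 0 counts in all 24 libraries. It lies in a stretch of chromosome 8 where all 526 listed genes are at 0, and it was not analysed here. All listed genes of chromosomes 9 (1978), X (2617), Y (1389) and MT (37) were also at 0, so a 0 in these parts does not show absent expression.

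Promoter sequences are shown for the 2 genes that passed the test after AngII, Itga5 and Itgb5, and for Vcl, the member that lies nearest to the targeted gene. They are the 250 bases before the RefSeq start, on the gene's own strand, from RefSeq on build GRCm38.p6 (mm10), and 8 of the 10 members have an entry there; Itga7 and Itgb3 have none. Capitals in Itga5 mark GGAAA on either strand, the core of sites bound by NFAT, the transcription factors that calcineurin switches on. Capitals in Itgb5 mark GGGCGG on either strand, the GC box. Capitals in Vcl mark a CArG box, the site of serum response factor.
Itga5 (chr15:103366792-103367041, minus strand): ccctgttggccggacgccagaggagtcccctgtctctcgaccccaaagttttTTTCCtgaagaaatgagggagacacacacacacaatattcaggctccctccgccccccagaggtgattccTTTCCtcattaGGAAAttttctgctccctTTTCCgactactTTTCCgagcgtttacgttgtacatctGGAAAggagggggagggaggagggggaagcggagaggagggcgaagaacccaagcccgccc
Itgb5 (chr16:33829415-33829664, plus strand): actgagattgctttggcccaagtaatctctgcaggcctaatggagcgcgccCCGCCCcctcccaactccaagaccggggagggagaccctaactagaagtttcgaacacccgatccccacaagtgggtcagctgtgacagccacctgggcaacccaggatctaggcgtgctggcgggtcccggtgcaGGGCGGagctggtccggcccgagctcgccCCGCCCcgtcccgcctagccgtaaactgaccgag
Vcl (chr14:20929148-20929397, plus strand): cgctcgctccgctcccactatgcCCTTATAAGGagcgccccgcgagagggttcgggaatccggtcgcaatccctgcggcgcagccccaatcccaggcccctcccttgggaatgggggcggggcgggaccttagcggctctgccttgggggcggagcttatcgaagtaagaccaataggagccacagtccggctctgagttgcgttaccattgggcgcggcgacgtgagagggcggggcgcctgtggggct
The Itga5 window holds 6 copies of GGAAA, none overlapping another, at 198 to 61 bases before the start. At least 1 copy stood in 55.6% of 32851 promoter windows of this length and at least 6 copies in 0.0639%. All 9 windows of the members were searched for each motif, and a different motif is marked in each window shown. The search also covered motifs that are not marked, and 1 of these had 1 copy in the Vcl window, 143 bases before the start. The share of 0.0639% is for a motif and a window picked from this search. It does not allow for that choice and is no evidence of a link to calcineurin. The Itgb5 window holds 3 copies of GGGCGG, and no GGAAA. Of all windows, 32.7% hold at least 1 copy of GGGCGG and 8.47% at least 3. GGGCGG also stood, unmarked, in the windows of Vcl (4 copies) and Itga5 (2), and in an Ilk window (3). The Vcl box begins 227 bases before the start, and 1.47% of windows hold a CArG box. A match in letters is a description of the window and shows no binding.

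The libraries held 1523328 to 6352365 counts. Protein-coding genes took from 36.3% of the counts in WT control male 1 to 74.6% in KO control female 1. TMM factors ran from 0.72 in WT control male 1 to 1.33 in KO AngII female 3. The part of this make-up in the members' values was not tested. The counts behind a member ran from 2459 to 13736 per library for Itga8 down to 22 to 774 for Itga7, while Ilk had only 0 to 37. In KO aortas Ppp3cb averaged 21.3 ± 6.11 CPM, against 41.9 ± 10.8 CPM in WT aortas (SD, n = 12 each); CPM are counts scaled to a common library size with TMM factors. The aortas expressed smooth muscle markers in every library, with Myh11 at 3636 to 9809 CPM, while Tagln and Cnn1, which lie with the genes listed at 0, could not be checked. Libraries 1 and 3 of the KO control females stood apart in total counts and smooth muscle markers. They held 1523328 and 1699541 counts, the lowest totals of all libraries. Their sums of the 8 counted smooth muscle markers were 7169 and 9308 CPM, while library 2 of that group had 11230 CPM and the other 21 libraries 11020 to 22000 CPM. The members' values without libraries 1 and 3 are given with each gene or together after them.

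Compared per kilobase of exon, Itga8 was far the most abundant of the alpha chains. This chain pairs with beta 1 in smooth muscle and binds nephronectin and fibronectin. Its median over 24 libraries was 283.6 CPM per kb (176.3 to 473.6). Tln1 followed at 60.9, Itga5 at 45.5, Vcl at 44.0 and Itgb5 at 36.8 CPM per kb, and their ranges over libraries overlapped. Lower medians were those of Itgb3 at 19.8, Itga7 at 11.5, Itgav at 9.02 and Itga1 at 8.82 CPM per kb; neighbours in that order also overlapped. Ilk was lowest at 0.71 CPM per kb and had 0 counts in 4 libraries. Itga8 made up 78.6 ± 6.79% of the summed level per kb of the 5 alpha genes (SD, n = 24), Itga5 13.1 ± 6.16%, and Itga7 3.26 ± 1.22%, Itgav 2.66 ± 0.55% and Itga1 2.39 ± 0.48%.

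**Figure D1:**
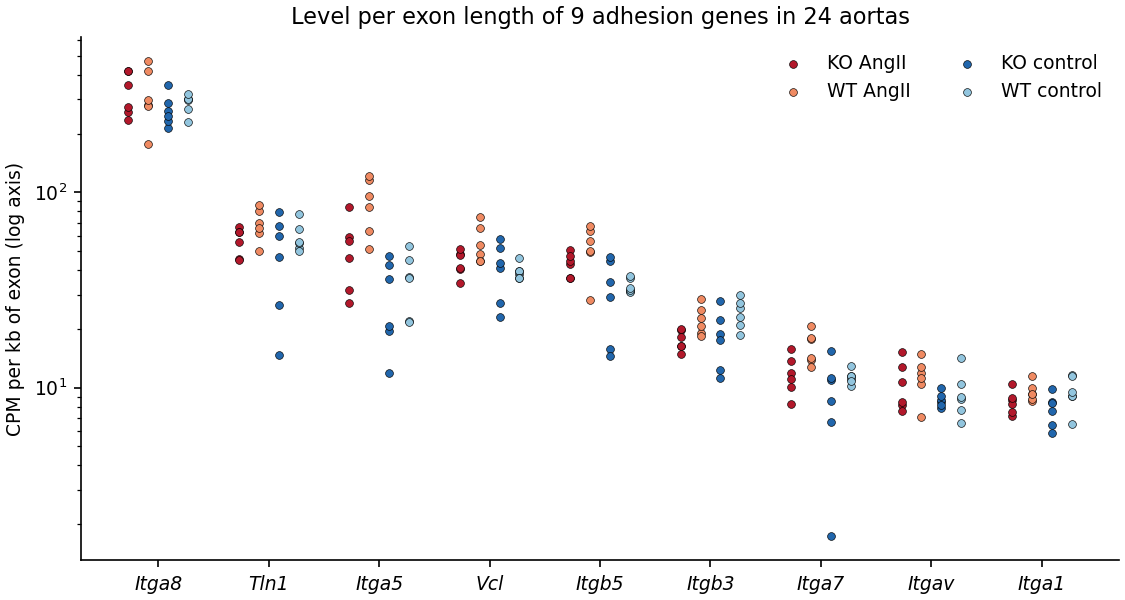
Level of 9 genes in CPM per kb of exon on a log axis, 1 point per library, coloured by group, genes ordered by median. Itga8 lies above every other gene in each group, at 176.3 to 473.6 CPM per kb, and the lowest Itga7 point is a KO control female.

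AngII in WT aortas went with a rise of Itga5 and of no other member that passed the test. Of the 10 members 8 had positive values and 1 was called at an adjusted p under 0.05, where 0.208% of the 16316 genes tested were called; the members' median was 0.24 log2, against -0.01 over all genes. In KO aortas 9 of 10 were positive, with a median of 0.31 against 0.01 over all genes, and 0 members were called by edgeR, as were 0% of all genes; 3 members and 1258 genes (7.71%) had an unadjusted p under 0.05, and DESeq2 called 20 genes, none of them a member. Over both genotypes the AngII contrast called 2 members, Itga5 and Itgb5, where 0.656% of genes were called, with a member median of 0.28 against 0.00. Each of these is a contrast of the same edgeR fit to all 24 libraries, averaged over the sexes. In whole tissue, fewer cells of a type and less RNA per cell cannot be told apart.

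KO against WT gave no called member. In control mice 9 of 10 members were lower (median -0.35, all genes -0.01), 0 were called by edgeR where 0.221% of genes were, and 1 had an unadjusted p under 0.05, as had 9.73% of genes. Under AngII 9 of 10 were lower (median -0.28, all genes 0.01), again with 0 called where 0.355% of genes were, and 1 with an unadjusted p under 0.05, against 7.75% of genes. Over both treatments all 10 values were below 0 (median -0.29, all genes -0.01), 4 with an unadjusted p under 0.05 (13% of genes) and 0 called, where 1.34% of genes were; Itga8, at -0.04, turned to 0.01 with RLE size factors and with DESeq2. DESeq2 called none of the members in these 3 contrasts. The difference between the genotypes in their AngII response called 0 members and 0% of genes, with 0 members and 657 genes (4.03%) at an unadjusted p under 0.05, and DESeq2 called 0 genes.

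Among the alpha chains, Itga5 (ENSMUSG00000000555, chromosome 15, 103344286 to 103366763, minus strand, mm10) encodes alpha 5, the fibronectin receptor chain. In WT AngII aortas it measured 254, 474 and 574 CPM in females and 416, 311 and 602 CPM in males. WT controls had 182, 180 and 109 CPM in females and 261, 107 and 221 CPM in males. All but 1 of the WT AngII libraries, a female at 254 CPM, lay above every WT control. The means were 439 ± 139 CPM in WT AngII and 177 ± 61.2 CPM in WT control aortas (SD, n = 6 each), a rise of 1.32 ± 0.26 log2 or 2.50-fold (SE; edgeR, adjusted p = 0.0183). Taken by sex in the same fit, the values were 1.47 ± 0.37 in females and 1.17 ± 0.36 in males, and their difference of 0.29 ± 0.51 did not pass the test (adjusted p = 1). The call was lost, with values of 1.15 to 1.27, when any of 5 libraries was left out: WT control female 3 (1.22), WT AngII females 2 (1.27) and 3 (1.18), WT control male 2 (1.15) or WT AngII male 3 (1.18). DESeq2 gave 1.27 with an adjusted p of 0.000649. Fits to 1 sex alone, with 3 libraries against 3 in WT, gave 1.43 in females (adjusted p = 1) and 1.15 in males (adjusted p = 0.256).

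In KO AngII aortas Itga5 measured 292, 227 and 133 CPM in females and 417, 279 and 156 CPM in males. KO controls had 96.2, 102 and 58.8 CPM in females and 233, 178 and 208.5 CPM in males. In females every KO AngII library lay above every KO control, and in males the groups overlapped. The means were 250.5 ± 103 CPM in KO AngII and 146 ± 70.1 CPM in KO control aortas, a difference of 0.90 ± 0.26 that was not called (adjusted p = 0.297); it was 0.79 without KO control females 1 and 3, and called without the count filter (0.92, adjusted p = 0.0061). Over both genotypes AngII aortas stood at 344.5 ± 153 CPM and controls at 161 ± 64.8 CPM (SD, n = 12 each), a rise of 1.11 ± 0.18 (adjusted p = 0.00158) that was still called when any single library was left out.

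**Figure D2:**
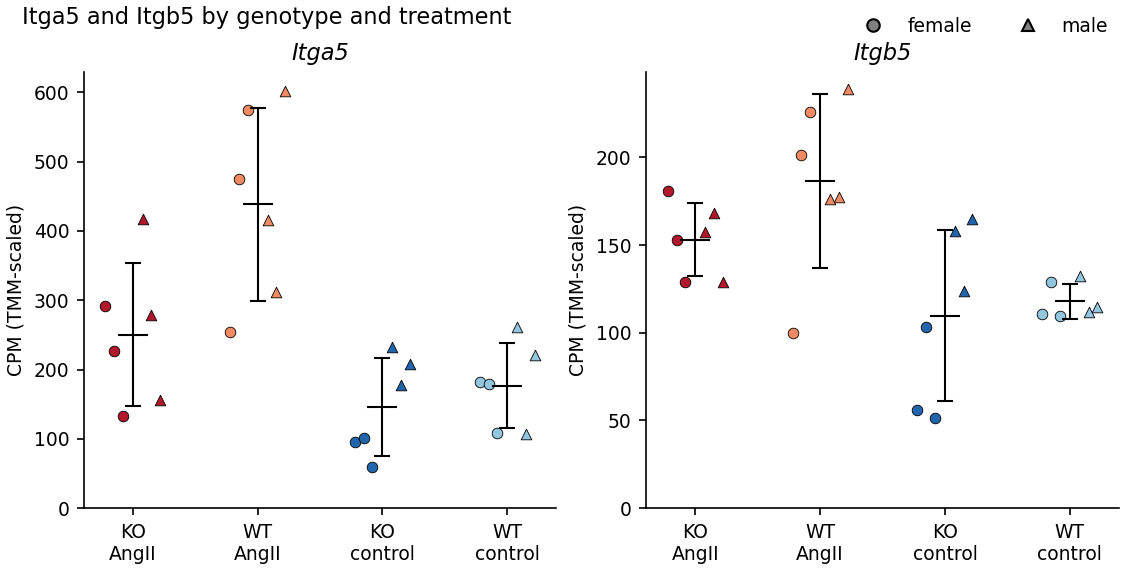
CPM of Itga5 and Itgb5 in each library (circles female, triangles male) by genotype and treatment, with the mean and SD of 6 libraries as bars. Itga5 averages 439 CPM in WT AngII and 250.5 CPM in KO AngII aortas, against 146 CPM in KO and 177 CPM in WT controls, and the 2 lowest Itgb5 points are KO control females.

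Set against WT AngII aortas, KO AngII aortas had 250.5 ± 103 and WT AngII aortas 439 ± 139 CPM of Itga5. Every one of the 6 KO values was under the WT median, and 3 were under all WT values. The difference was -0.82 ± 0.26 log2 and was not called (adjusted p = 0.249; 0.00927 without the count filter). In controls KO against WT was -0.40 ± 0.26 (adjusted p = 0.642), at -0.87 ± 0.37 in females and 0.07 ± 0.36 in males. The AngII response of Itga5, KO minus WT, differed by -0.42 log2, with an interval of -1.13 to 0.29 (1.96 SE either side; adjusted p = 0.9999). Over both treatments KO against WT was -0.61 ± 0.18 (198 ± 100.3 against 308 ± 171 CPM; adjusted p = 0.0888). That contrast was called when WT AngII female 1 (-0.72, adjusted p = 0.0242), KO control female 2 (-0.69, 0.0348), WT control male 2 (-0.73, 0.0176) or KO AngII male 1 (-0.73, 0.0321) was left out, and without the count filter (-0.65, 0.00121).

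Itga7 (ENSMUSG00000025348, chromosome 10, 128933818 to 128958282, plus strand) encodes the laminin receptor chain of muscle. It measured 103 to 168 CPM (median 129.5) in WT AngII and 82.3 to 104 CPM (median 91.1) in WT control aortas, and 5 of 6 AngII libraries lay above every control. The difference was 0.51 ± 0.23 (adjusted p = 0.67) in WT and 0.48 ± 0.23 (adjusted p = 0.645) in KO aortas, and 0.50 ± 0.16 over both (adjusted p = 0.186). Under AngII, 4 of 6 KO libraries lay below every WT library, with 95.6 ± 21.5 CPM in KO and 131 ± 25.0 CPM in WT aortas (-0.45 ± 0.23, adjusted p = 0.65). KO control female 1, at 14.01 CPM, was the lowest of all 24 libraries.

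Itga8 (ENSMUSG00000026768, chromosome 2, 12106632 to 12301922, minus strand), the dominant alpha chain, had 2060 to 3490 CPM in 4 of 6 WT AngII libraries and 1299 and 2031 CPM in the others, against 1684 to 2344 CPM in WT controls. Its difference was 0.16 ± 0.21 (adjusted p = 0.996) in WT and 0.30 ± 0.21 (adjusted p = 0.777) in KO aortas. The intervals for AngII were -0.25 to 0.57 in WT and -0.11 to 0.72 in KO. The 4 highest libraries were AngII females, 3092 and 3490 CPM in WT and 3067 and 3092 CPM in KO, while WT AngII female 1 was the lowest of all at 1299 CPM.

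Itgav (ENSMUSG00000027087, chromosome 2, 83724397 to 83806916, plus strand) encodes alpha v, which pairs with beta 3 and beta 5 and also releases latent TGF-beta. It averaged 122 ± 27.7 CPM in WT AngII and 101.5 ± 28.6 CPM in WT control aortas (0.28 ± 0.19, adjusted p = 0.915). In KO aortas it averaged 113 ± 32.6 CPM under AngII and 93.4 ± 7.90 CPM in controls (0.25 ± 0.19, adjusted p = 0.801). Itga1 (ENSMUSG00000042284, chromosome 13, 114953096 to 115101964, minus strand), a collagen receptor chain of smooth muscle, was at 178 ± 20.0 CPM in WT AngII and 178 ± 34.9 CPM in WT control aortas (0.00 ± 0.17, interval -0.33 to 0.33). KO against WT over both treatments was -0.24 ± 0.12 for Itga1 and -0.12 ± 0.14 for Itgav, neither called. The groups of both genes overlapped in every comparison.

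Itga5 can also be set against Itga8 within each library. As a percentage of Itga8 per kb within each library, Itga5 was 28.5 ± 7.12% in WT AngII (20.3 to 40.8) and 12.9 ± 5.69% in WT control aortas (7.35 to 23.2). In KO aortas it was 17.6 ± 11.1% under AngII (6.49 to 35.8) and 10.8 ± 3.98% in controls (5.15 to 14.7; SD, n = 6 in each group). These ratios do not depend on the scaling between libraries and were not tested. KO AngII libraries spread widest. Of the 6, 3 lay above every KO control, a female at 22.96% and 2 males at 20.5% and 35.8%, and 1 of these also lay above every WT control.

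**Figure D3:**
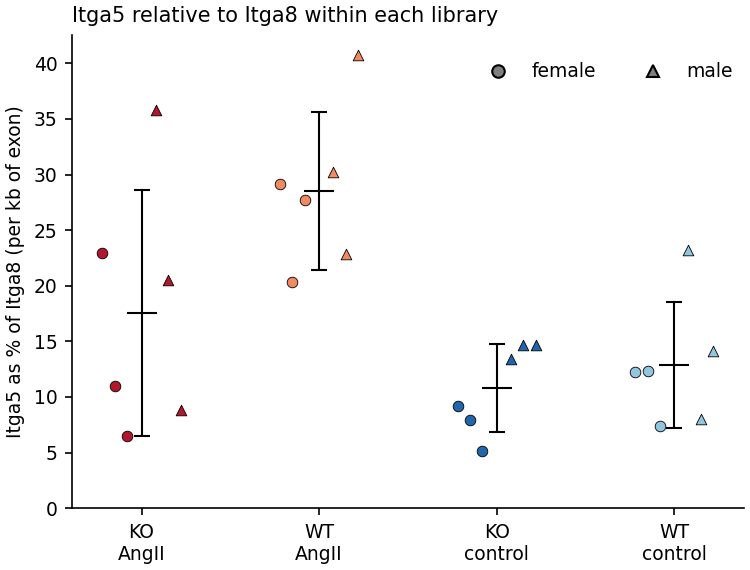
Itga5 as a percentage of Itga8, both in CPM per kb of exon, in each library (circles female, triangles male), with the mean and SD of 6 libraries as bars. WT AngII libraries lie at 20.3% to 40.8%, KO AngII libraries at 6.49% to 35.8%, KO controls at 5.15% to 14.7% and WT controls at 7.35% to 23.2%.

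Of the beta chains, Itgb5 (ENSMUSG00000022817, chromosome 16, 33829665 to 33949338, plus strand) pairs with alpha v as a vitronectin receptor. WT AngII aortas had 99.8, 201 and 226 CPM in females and 176.5, 178 and 239 CPM in males. WT controls had 111, 129 and 110 CPM in females and 132, 112 and 114.5 CPM in males. Apart from WT AngII female 1, which was below every WT control, all WT AngII libraries exceeded all WT controls. The difference was 0.66 ± 0.20 (187 ± 49.5 against 118 ± 9.96 CPM) and was not called (adjusted p = 0.277); without WT AngII female 1 it was 0.79 and called (adjusted p = 0.0393).

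In KO AngII aortas Itgb5 measured 181, 153 and 129 CPM in females and 158, 168 and 129 CPM in males. KO controls had 56.0, 103 and 51.5 CPM in females and 158, 124 and 165 CPM in males. The female groups did not overlap, and the male groups did. The KO difference of 0.58 ± 0.20 (adjusted p = 0.443) was 0.32 without KO control females 1 and 3, and 0.80 and called without KO control female 2 (adjusted p = 0.0478). Over both genotypes Itgb5 stood at 170 ± 40.3 CPM in AngII and 114 ± 33.8 CPM in control aortas, a rise of 0.62 ± 0.14 (adjusted p = 0.0252), and 11 of 12 AngII libraries lay above the control median. This call was lost without KO control females 1 and 3 (0.49, adjusted p = 0.15). It was also lost without any of 9 single libraries: WT control females 1 (0.61) and 3 (0.61), WT AngII females 2 (0.60) and 3 (0.57), KO AngII female 1 (0.59), WT control male 2 (0.61), WT AngII male 3 (0.59), KO control male 2 (0.60) and KO AngII male 2 (0.60), with adjusted p-values of 0.0506 to 0.0777.

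Itgb3 (ENSMUSG00000020689, chromosome 11, 104608000 to 104670476, plus strand), the other beta partner of alpha v and the beta chain of the platelet fibrinogen receptor, had AngII values below 0 in both genotypes when averaged over the sexes, and above 0 in females alone. It averaged 132 ± 22.8 CPM in WT AngII and 143 ± 24.7 CPM in WT control aortas (-0.11 ± 0.18, interval -0.46 to 0.23). Over both treatments 7 of 12 KO libraries lay below every WT library, with 106 ± 26.01 CPM in KO and 137 ± 23.4 CPM in WT aortas. That difference, -0.39 ± 0.12, was not called (adjusted p = 0.123; -0.49 and 0.022 without KO control female 2). Platelet markers summed to 6.37 to 46.0 CPM in KO and 5.36 to 34.3 CPM in WT aortas, over 9 markers of which 6 were tested and 0 called. Within a library Itgb5 was 2.35 ± 0.54 times Itgb3 per kb in WT AngII and 1.41 ± 0.30 times in WT control aortas, and 2.47 ± 0.33 times in KO AngII and 1.63 ± 0.33 times in KO control aortas (SD, n = 6).

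Tln1 (ENSMUSG00000028465, chromosome 4, 43531519 to 43562691, minus strand) encodes talin 1. KO controls measured 144, 456 and 261 CPM in females and 663, 583 and 774.5 CPM in males. WT controls measured 512, 540 and 546 CPM in females and 762.1, 490 and 638 CPM in males. The 3 KO control females lay below all WT controls, and the KO control males lay within or just above them. KO against WT in controls was -0.40 ± 0.20 (adjusted p = 0.54), at -0.89 ± 0.29 in females and 0.10 ± 0.29 in males; it was -0.11 without KO control females 1 and 3, and -0.70 and called without KO control female 2 (adjusted p = 0.0488). Over both treatments it was -0.34 ± 0.14 (516 ± 178 against 628.5 ± 121 CPM, adjusted p = 0.293; -0.21 without KO control females 1 and 3, and -0.50 with an adjusted p of 0.03 without KO control female 2). Under AngII, KO aortas had 552 ± 90.5 CPM and WT aortas 676 ± 128 CPM (-0.28 ± 0.20, adjusted p = 0.895).

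**Figure D4:**
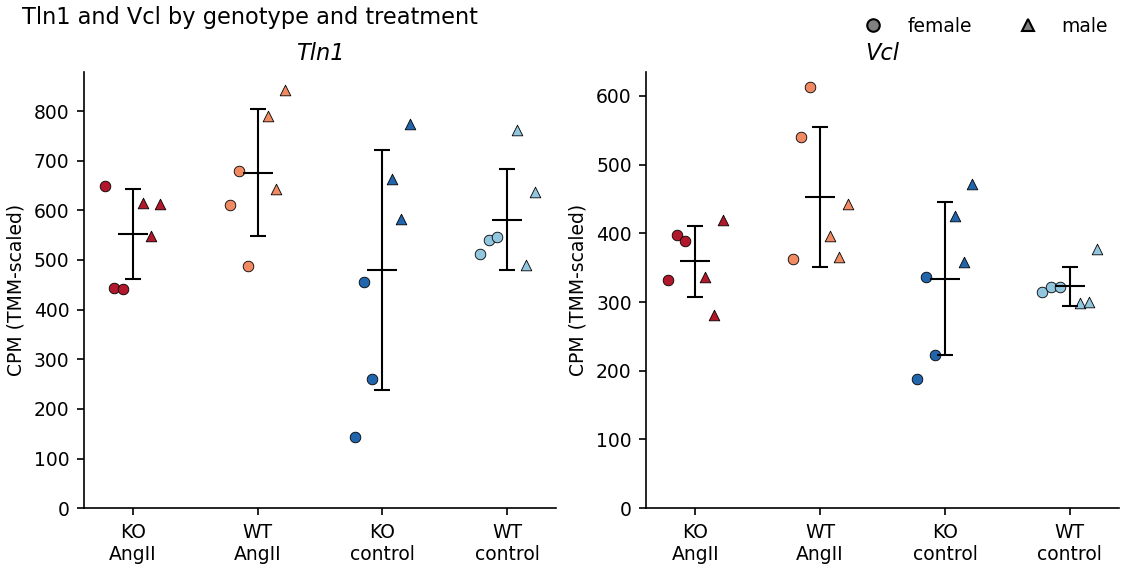
CPM of Tln1 and Vcl in each library (circles female, triangles male) by genotype and treatment, with the mean and SD of 6 libraries as bars. The 3 KO control females lie at 144, 261 and 456 CPM of Tln1, and the 2 highest Vcl points, 540 and 613 CPM, are WT AngII females.

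Vcl (ENSMUSG00000021823, chromosome 14, 20929398 to 21033676, plus strand) encodes vinculin. In WT AngII aortas it measured 363, 540 and 613 CPM in females and 395, 365 and 442 CPM in males. WT controls had 315, 322 and 322.5 CPM in females and 299, 300 and 378 CPM in males. All WT AngII libraries lay above the WT control median and 4 of 6 above every WT control, and the difference was 0.48 ± 0.17 (453 ± 102 against 323 ± 28.9 CPM) and not called (adjusted p = 0.479). In KO aortas AngII against control was 0.15 ± 0.17 (359 ± 51.6 against 334 ± 111 CPM, adjusted p = 0.899). The AngII response differed between KO and WT by -0.33 ± 0.25 (interval -0.81 to 0.15, adjusted p = 0.9999).

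Vcl lies 382.8 kb from Ppp3cb on the same chromosome. KO against WT for Vcl was 0.00 ± 0.18 in controls and -0.33 ± 0.17 under AngII (adjusted p = 0.71), and -0.16 ± 0.12 over both treatments. Besides Ppp3cb, 34 genes within 1 Mb of it were tested, and 3 were called over both treatments, Gm2244, Gm2237 and Gm5458, all higher in KO and lying 896.8 to 949.4 kb away; none of the 25 with a full gene name was called. Ap3m1, whose exons share 25.5% of the Vcl exon bases on the opposite strand, was at 49.8 ± 14.97 CPM in KO and 44.2 ± 12.9 CPM in WT aortas (SD, n = 12 each). Whether counting used strand is not given in the sources used here, so reads in that overlap cannot be placed.

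Ilk (ENSMUSG00000030890, chromosome 7, 105736592 to 105742925, plus strand) encodes integrin-linked kinase, which binds beta tails in a complex with PINCH and parvin proteins. It stood at 2.77 ± 1.61 CPM in WT AngII and 3.23 ± 3.88 CPM in WT control aortas, and at 2.41 ± 1.58 CPM in KO AngII and 1.68 ± 2.12 CPM in KO control aortas. Exons of Taf10 and Rrp8 on the opposite strand cover 89.7% of its exon bases, so this level may not be that of the transcript. Its SEs, 0.63 to 1.28 log2, leave intervals that include 0 in each comparison. With Ilk left out, the median of the other 9 members was 0.28 for AngII in WT, 0.30 for AngII in KO and -0.24 for KO against WT over both treatments.

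**Figure D5:**
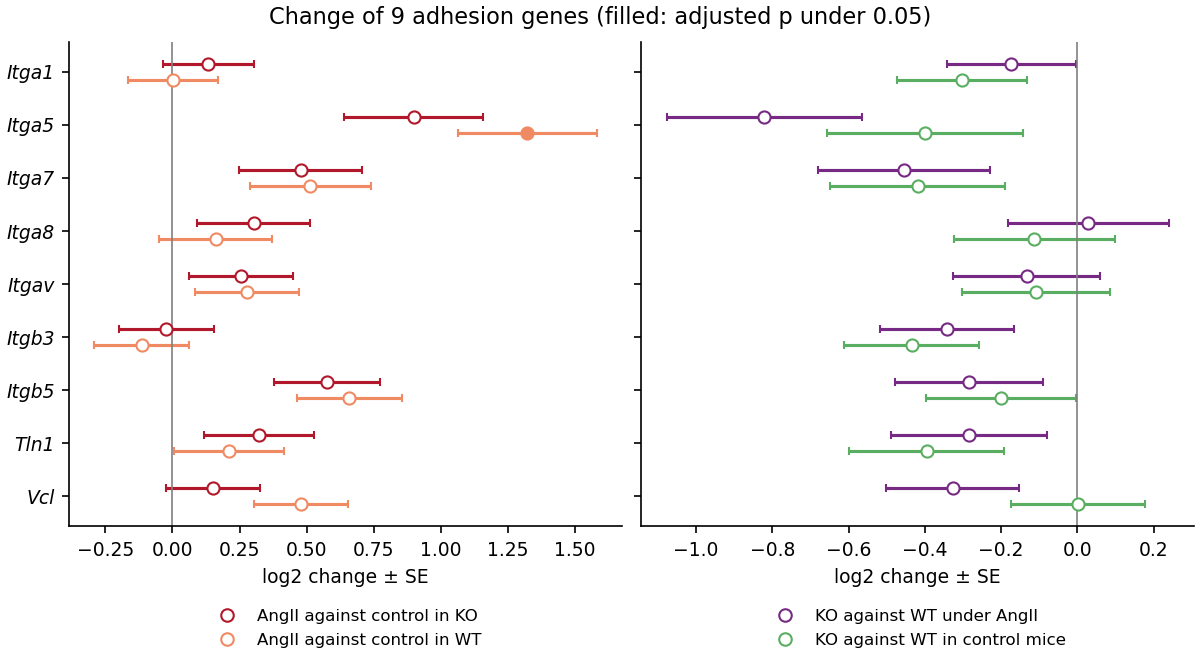
Log2 change ± SE of 9 genes, for AngII against control in KO and WT aortas (left) and for KO against WT under AngII and in controls (right), with filled points where the adjusted p is under 0.05. Itga5 in WT aortas, at 1.32, is the filled point, and its KO value of 0.90 is the next largest.

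The AngII contrast was also taken by sex. In KO females it was 1.13 ± 0.28 for Itgb5, 0.83 ± 0.29 for Tln1, 0.91 ± 0.33 for Itga7 and 0.58 ± 0.25 for Vcl. In KO males the same genes were at 0.03 ± 0.28, -0.19 ± 0.29, 0.05 ± 0.32 and -0.28 ± 0.25. The differences, female minus male, were 1.10 ± 0.39 for Itgb5 (adjusted p = 0.5), 1.02 ± 0.41 for Tln1 (0.574), 0.86 ± 0.46 for Itga7 (0.679) and 0.86 ± 0.35 for Vcl (0.588), and did not pass the threshold. Each female value is measured against the KO control females. These had low smooth muscle marker sums, 7169 to 11230 CPM, and the lowest library totals, 1523328 to 2401264 counts. The part of either in these values was not tested. In WT mice the same differences, female minus male, were -0.13 ± 0.39 for Itgb5, -0.11 ± 0.41 for Tln1, -0.26 ± 0.45 for Itga7 and 0.36 ± 0.35 for Vcl.

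Without KO control females 1 and 3, AngII against control in KO aortas was 0.37 for Itga7, 0.25 for Itga8, 0.25 for Itgav, 0.01 for Itga1, -0.21 for Itgb3, 0.00 for Tln1 and -0.05 for Vcl. KO against WT in controls was then -0.32 for Itga5, -0.35 for Itga7, 0.03 for Itgb5, -0.27 for Itgb3 and 0.18 for Vcl. Over both treatments it was -0.59 for Itga5 (adjusted p = 0.219), -0.41 for Itga7, -0.32 for Itgb3 (adjusted p = 0.365), -0.14 for Itgb5 and -0.09 for Vcl, and for AngII over both genotypes Itga5 was at 1.05 and called (adjusted p = 0.00913).

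Marker lists of cell types were set beside these comparisons. In WT AngII aortas the 9 counted fibroblast markers summed to 2065 to 4543 CPM (median 3208), against 1344 to 2267 CPM (median 1672) in WT controls; 8 of 9 were higher and 1, Col1a1, was called. The 8 counted endothelial markers summed to 318 to 1049 CPM (median 493) in WT AngII and 402.5 to 1958 CPM (median 807) in WT control aortas, all 8 lower and 0 called. The 8 counted smooth muscle markers summed to 12400 to 20890 CPM in WT AngII and 13750 to 21630 CPM in WT control aortas, 5 higher, 3 lower and 0 called. The 10 macrophage markers summed to 131 to 233 CPM (median 168) in WT AngII and 86.5 to 128 CPM (median 102) in WT control aortas, all 10 higher and 0 called.

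In KO aortas under AngII 7 of 9 fibroblast markers were higher (2176 to 3219 CPM in KO AngII, 1339 to 3171 CPM in KO control aortas), 7 of 8 smooth muscle markers were higher, all 8 endothelial markers were lower and 8 of 10 macrophage markers were lower (106 to 309 CPM in KO AngII, 92.1 to 549 CPM in KO control aortas), 0 called in each list. Over both genotypes, where Itga5, Itgb5 and Itga3 were called, all 9 fibroblast markers and all 8 smooth muscle markers were higher under AngII and all 8 endothelial markers were lower; Col1a1 was called. Markers of Schwann cells and nerve had the largest medians of the lists in these contrasts. All 7 tested were lower under AngII in WT (median -1.61), in KO (-2.33) and over both genotypes (-2.06), where 2 were called, Dbh (-3.72 ± 0.84, adjusted p = 0.0279) and Snap25 (-4.51 ± 0.77, adjusted p = 0.00197). Both had low levels. Median Dbh was 0 CPM in KO AngII, 14.9 in KO control, 0.73 in WT AngII and 2.85 in WT control aortas. Median Snap25 was 0, 9.68, 0.58 and 1.37 CPM in the same order. The highest control libraries reached 53.5 CPM of Dbh (KO) and 37.2 CPM of Snap25 (WT). Snap25 was called whichever library was left out; Dbh lost its call without KO control female 1 (-2.58), WT control female 3 (-3.26), WT control male 2 (-3.21) or KO control male 3 (-3.52), and without KO control females 1 and 3 (-1.85, adjusted p = 1). The sums of the 7 nerve markers were 12.4 to 58.0 CPM in WT AngII and 19.05 to 138 CPM in WT control aortas, and 10.2 to 25.5 CPM in KO AngII and 17.3 to 251 CPM in KO control aortas, with the highest in a KO control male.

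In KO against WT over both treatments all 8 smooth muscle markers were lower, 0 called, with sums of 7169 to 22000 CPM in KO and 12400 to 21630 CPM in WT aortas. All 10 macrophage markers were higher in that contrast, 0 called, with sums of 92.1 to 549 CPM in KO and 86.5 to 233 CPM in WT aortas. Taken by treatment, all 10 were higher in KO in control mice (median 1.425). Under AngII 5 were higher and 5 lower (median 0.01), and 0 were called in each. Clec3b (fibroblast), Cdh5 and Esam (endothelium), and Tagln and Cnn1 (smooth muscle) were at 0 in every library. The part of these cell types in the members' values was not tested.

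Of a list of matrix, growth factor and other genes taken as integrin ligands, 29 were tested and 9 were called higher under AngII in WT aortas. Binding of each product to an integrin was not tested. This list, like the others, was chosen with earlier results of these data known. Its counts beside the shares over all genes are therefore a description and no independent evidence of a ligand response. Of the 29, 25 were higher and none was called lower, with a median of 0.57 log2; 0.184% of all genes were called higher. Fn1, fibronectin, the ligand of alpha 5, stood at 9822 ± 3358 CPM in WT AngII and 3624 ± 1239 CPM in WT control aortas (1.43 ± 0.31, adjusted p = 0.0408). Postn, periostin, a ligand of alpha v integrins, stood at 1755 ± 810 CPM in WT AngII and 636 ± 112 CPM in WT control aortas (1.44 ± 0.23, adjusted p = 0.00235). Mfge8, which carries the RGD sequence that alpha v integrins recognise, was at 435 ± 156 CPM in WT AngII and 201 ± 27.6 CPM in WT control aortas (1.10 ± 0.23, adjusted p = 0.0273). The other 6 called were Col1a1, Col1a2, Col3a1, Col4a2, Ccn2 and Tnc. Col1a1 stands in both lists and is the called fibroblast marker given above, so these are not separate observations. The count of 9 was 12 without KO control females 1 and 3, 14 without the count filter, 0 in females alone and 1 in males alone, and it was 5 or under without WT control females 1 (3), 2 (5) or 3 (5), WT AngII females 2 (5) or 3 (2), WT control male 2 (3) or WT AngII male 3 (5). Postn and Col1a1 were called whichever library was left out. The call of Fn1 was lost without any 1 of 9 WT libraries, all of the 12 but WT AngII female 1, WT control male 3 and WT AngII male 1 (1.27 to 1.52, adjusted p of 0.0565 to 0.148). That of Mfge8 was lost without any 1 of 8, those named for Fn1 but WT AngII male 2 (0.98 to 1.13, adjusted p of 0.0571 to 0.145). Tnc lost its call without 13 single libraries, Col4a2 without 7, Col3a1 without 3, and Col1a2 and Ccn2 without 2 each.

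In KO aortas 26 of 29 ligand genes were higher under AngII, with a median of 0.44 and 0 called by edgeR; 14 had an unadjusted p under 0.05. Without the count filter 5 were called, without KO control female 2 there were 2, without WT AngII female 1 there was 1, and DESeq2 called 1. The difference in response between the genotypes called none of the 29 in any of these fits. Postn was at 1090 ± 307 CPM in KO AngII and 536 ± 121 CPM in KO control aortas (1.00 ± 0.22, adjusted p = 0.165), with every AngII library above every control. Over both genotypes 12 were called, all higher, where 0.496% of genes were called higher: the 9 above with Col4a1, Fbn1 and Tgfb2. The 9 were called there whichever library was left out, as was Col4a1, and Fbn1 lost its call without WT AngII female 3 (0.58, adjusted p = 0.0517), while Tgfb2 was called in 7 of 24 such fits, and without KO control females 1 and 3 the count was 9. Under AngII 25 of 29 were lower in KO than in WT (median -0.37) and 2 were called, where 0.049% of genes were called lower: Ccn2 (709 ± 297 against 1564 ± 489 CPM; -1.14 ± 0.26, adjusted p = 0.0329) and Tgfb3 (95.0 ± 12.1 against 166 ± 42.6 CPM; -0.79 ± 0.18, adjusted p = 0.0369). Ccn2 lost that call without WT AngII female 2 or 3, WT AngII male 2 or 3, KO AngII female 3, or KO AngII male 2 or 3 (-1.13 to -0.997), and Tgfb3 without WT control female 2 or any of 10 of the 12 AngII libraries, all but WT AngII female 1 and KO AngII female 3 (-0.85 to -0.73). Vcam1, the ligand of alpha 4 beta 1 on inflamed endothelium, was higher in KO over both treatments, where 1.12% of genes were called higher (72.3 ± 28.1 against 40.01 ± 17.2 CPM; 0.85 ± 0.22, adjusted p = 0.0483), where Ccn2 and Tgfb3 fell. Leaving out 1 library ended the Vcam1 call in 16 of 24 fits (adjusted p up to 0.142), as did leaving out KO control females 1 and 3 (0.75, adjusted p = 0.171), and ended neither of the other two.

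Among 19 other integrin subunits 16 were tested, and the other 3 were at 0 in every library. Itga3, a laminin receptor chain, rose over both genotypes, to 142 ± 32.1 CPM in AngII, against 89.3 ± 26.4 CPM in control aortas (0.71 ± 0.13, adjusted p = 0.00478), and was the single one called in any of the 7 comparisons. Itga3 was called whichever library was left out. Its call was lost in the fits to females alone (0.765, adjusted p = 0.312) and males alone (0.63, adjusted p = 0.186). Its values were 0.61 ± 0.19 in WT (adjusted p = 0.304) and 0.81 ± 0.19 in KO aortas (adjusted p = 0.187). Over both treatments 13 of 16 were higher in KO than in WT (median 0.69) and 0 were called; Itgb2, the leukocyte beta chain, was at 9.07 ± 8.72 CPM in KO and 4.24 ± 2.10 CPM in WT aortas (1.07 ± 0.42, adjusted p = 0.232), and Itgb8, an activator of latent TGF-beta, at 27.4 ± 8.60 CPM in KO and 17.2 ± 8.15 CPM in WT aortas (0.74 ± 0.21, adjusted p = 0.0672). All 10 macrophage markers were also higher in KO over both treatments, as given above, and their part in the Itgb2 value was not tested.

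Of 20 tested actin linkers and LIM proteins of adhesions, all 20 were lower in KO than in WT over both treatments (median -0.28, against -0.01 over all genes), and 1 was called. All 8 smooth muscle markers were also lower in that contrast (median -0.23), which includes the KO control females with low smooth muscle sums; their part was not tested. Enah, which speeds the growth of actin filaments at adhesions, was at 362 ± 111 CPM in KO and 551 ± 130 CPM in WT aortas (-0.64 ± 0.13, adjusted p = 0.00324). This call was kept whichever library was left out and without KO control females 1 and 3 (-0.57, adjusted p = 0.0321). It was lost in the fit to males alone (-0.44, adjusted p = 0.611). Of all genes 0.227% were called lower. Flnc, the muscle filamin, had 164 ± 35.4 CPM in KO AngII and 320 ± 177 CPM in WT AngII aortas (-0.95 ± 0.24, adjusted p = 0.078). AngII against control left 16 of the 20 higher in WT (median 0.27) and 18 in KO aortas (median 0.23), 0 called in each. Flnc was at 320 ± 177 CPM in WT AngII and 161 ± 29.6 CPM in WT control aortas (0.98 ± 0.24, adjusted p = 0.0819).

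Further lists held kindlins, proteins of the ILK complex and talin activators, and then kinases and scaffolds of focal adhesions. In the first list 7 of 14 tested genes were higher under AngII in WT (median -0.01, all genes -0.01). In KO over both treatments 8 of 14 were lower (median -0.08, all genes -0.01). Fermt2, the kindlin of smooth muscle, was at 183 ± 27.7 CPM in KO and 223 ± 46.3 CPM in WT aortas (-0.28 ± 0.11, adjusted p = 0.267). Among the 13 tested kinases and scaffolds of focal adhesions 10 were lower in KO over both treatments (median -0.13, all genes -0.01). EdgeR called 0 genes of either list in the 7 comparisons.

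Across the 24 libraries, which share groups, depth and tissue make-up, Itga5 tracked Itgb5 with r = 0.869 and Itga7 tracked Tln1 with r = 0.887, the 2 highest values among the members. Of 7629 protein-coding genes, those most like Itga5 were Col18a1 (r = 0.912), Sparc (0.889) and Col4a1 (0.885), all matrix genes. Itgb5 was most like Itga3 (0.938), Col18a1 (0.92) and Ehd2 (0.917), and Tln1 most like Lama5 (0.945), Tnks1bp1 (0.944) and Bsg (0.942). Vcl was most like Fbn1 (0.866), Trak2 (0.861) and Col6a3 (0.854), and Itga8 most like Lpp (0.901), a LIM protein of adhesions. These are Pearson correlations of log2 CPM, given as a description. The libraries also differ in protein-coding share, as given above, and its part in these correlations was not tested.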

How the data were processed

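The 24 libraries of aortic RNA were analysed from a table of whole-number counts per gene as the authors deposited it, not normalized. Every column was matched to its sample through the labels, which do not state that each library is a separate mouse. Per the labels' protocols, total RNA was depleted of ribosomal RNA. Per the submitters' processing notes, cutadapt 1.8.1, TopHat2 2.0.14, Bowtie2 2.2.5 and featureCounts 1.4.6 were used with build mm10; settings and strand are not given in the sources used here. Genes past filterByExpr (minimum count 10, minimum total 15; 16316 genes) were scaled by TMM and tested with edgeR 4.0.16 (R 4.3.3, limma 3.58.1), with 1 quasi-likelihood fit over the 8 groups, two-sided F-tests and Benjamini-Hochberg adjustment over all genes; called means an adjusted p under 0.05. SE is the log2 change over the square root of F, and log2 CPM used a prior count of 2. The fit was tested on simulated data. Exon lengths, coordinates and overlaps came from GENCODE M21, which matched 40254 of 41128 identifiers. Counts were 1523328 to 6352365 per library, and PCR copies are not marked, so errors cover the spread between libraries. No 2 libraries of a group were copies (chi-square per degree of freedom 6.66 to 97.3 over 24 pairs). Alternatives were RLE size factors, DESeq2 1.42.0, no count filter, protein-coding genes only, each sex alone, the compared groups alone, a replicate block, and leaving out libraries. The members, gene lists and marker lists were chosen with earlier results of these data known. All members are named; of the other lists, called genes and those of smallest p in a comparison could be named; most like genes are the 3 of highest r among protein-coding genes of at least 3 mean log2 CPM. Ccn1, Ccn2, Tns2 and Adgre1 are listed as Cyr61, Ctgf, Tenc1 and Emr1.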

Additional observations from a re-analysis of the deposited data

Results flagged for a closer look

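In 3 of the 40 sets of 6 libraries looked at (10 genes in 4 groups), the highest library lay far from the others relative to the range of its group; chance gives this in about 1 in 20 sets. Vcl was at 378 CPM in WT control male 3, with the next library at 322.5 and the lowest at 299 CPM. Ilk was at 5.70 CPM in KO control male 2, with the next library at 1.94 CPM and the lowest at 0. Ilk was also at 10.9 CPM in WT control male 1, with the next library at 2.56 CPM and the lowest at 0. The Ilk values rest on at most 37 counts in a library.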

How the results depend on the processing

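Over 70 values of the 10 members and their alternatives, 2120 of 2272 kept direction and side of the threshold, 21 lost a call, 12 gained a call and 119 changed sign, 110 of these for values within 1 SE of 0. In males alone AngII in KO turned to -0.009 for Itga8, -0.002 for Itgav, -0.17 for Tln1, -0.256 for Vcl and -0.054 for Itga1, and in WT to -0.102 for Itga1; KO against WT in controls turned to 0.046 for Itga5, 0.13 for Itga7, 0.29 for Itgb5, 0.07 for Tln1 and 0.098 for Itga8, and over both treatments to 0.072 for Vcl and 0.071 for Itga8; AngII over both genotypes turned to -0.078 for Itga1 and -0.037 for Ilk, and the difference in response to -0.055 for Itga8 and -0.408 for Tln1. In females alone Itgb3 turned to 0.074 in WT, 0.286 in KO and 0.18 over both genotypes, Itgav to 0.056, 0.125 and 0.091 for KO against WT in controls, under AngII and over both treatments, Vcl in controls to -0.344, and the difference in response to 0.528 for Itga7, 0.068 for Itgav and 0.551 for Itgb5. Without KO control females 1 and 3, Itgb5 in controls turned to 0.029, Vcl for AngII in KO to -0.048, Ilk over both genotypes to -0.039 and the difference in response to -0.098 for Itgb3 and -0.203 for Tln1. Itga1 for AngII in WT turned to -0.042 with RLE and with DESeq2, -0.009 with protein-coding genes and -0.017 with the compared groups, Vcl in controls to -0.04 without the filter, -0.017 with protein-coding genes and -0.001 with the compared groups, and Itga8 over both treatments to 0.013 with RLE and DESeq2. Leaving out 1 library gave values on both sides of 0 for AngII in WT of Itga1 (-0.108 to 0.058) and Ilk (-0.618 to 0.728), AngII of Itgb3 in KO (-0.074 to 0.141) and over both genotypes (-0.098 to 0.009), KO against WT of Vcl in controls (-0.192 to 0.082) and of Itga8 (-0.153 to 0.143) and Ilk (-0.596 to 0.175) under AngII, and the difference in response of Itga7 (-0.242 to 0.195), Itgav (-0.114 to 0.133), Itgb5 (-0.195 to 0.154) and Tln1 (-0.05 to 0.4). Members called were 0 in females and 0 in males for AngII in WT and for AngII over both genotypes (1 there without KO control females 1 and 3), and 1 without the count filter for AngII in KO, for KO against WT under AngII and for KO against WT over both treatments. Leaving out 1 library gave 0 to 2 called members for AngII in WT, 0 to 1 for AngII in KO, 1 to 2 over both genotypes, 0 to 1 for KO against WT in controls and 0 to 3 over both treatments. Genes called over all genes were 134 without the filter, 80 with DESeq2, 68 without KO control females 1 and 3, 0 in females, 5 in males and 5 to 86 without 1 library for AngII in WT (34). For AngII in KO (0) they were 85 without the filter, 20 with DESeq2, 1 with the compared groups alone and 0 to 113 without 1 library. For KO against WT in controls (36) they were 260 without the filter, 178 with DESeq2, 94 in females, 0 in males, 21 with the compared groups alone, 3 without KO control females 1 and 3 and 13 to 399 without 1 library. For KO against WT under AngII (58) they were 182, 146 with DESeq2, 0 in females, 0 in males and 35 to 72 without 1 library, and for the difference in response (0) 12 without the filter and 0 to 2. For AngII over both genotypes (107) they were 276, 215 with DESeq2, 0 in females, 3 in males and 59 to 264, and for KO against WT over both treatments (219) 559, 486 with DESeq2, 5 in males, 131 without KO control females 1 and 3 and 171 to 624. Called genes were higher in 88.2% for AngII in WT and 75.7% over both genotypes, but 71.2% and 57.7% with DESeq2. A fit with the replicate number as a block changed no member's call (Itga5 in WT 1.37, adjusted p = 0.0185) and called 24 genes for AngII in WT; the numbers did not pair the libraries, since same-numbered libraries had a median r of 0.00287 (-0.102 to 0.132) and 10 of 24 were most like their own number. With the block Fn1 (1.43, adjusted p = 0.0622) and Tnc (0.94, 0.0545) lost their WT call, Ccn2 (-1.12, 0.0609) its call under AngII and Tgfb2 (0.65, 0.0733) its call over both genotypes. With the compared groups alone Fn1 (1.41, adjusted p = 0.0566), Mfge8 (1.07, 0.0516) and Tnc (0.93, 0.0683) lost their WT call. Ccn2 (-1.11, 0.0977) then lost its call under AngII. RLE size factors ended the Tgfb2 call over both genotypes (0.605, adjusted p = 0.0849). Protein-coding genes only ended the Vcam1 call over both treatments (0.84, adjusted p = 0.0582). The alternatives for listed ligands, markers, Itga3 and Enah were added after seeing the data, and none of their called values changed sign. Each of their calls was lost in the fit to females alone, in the fit to males alone or in both. The cause of these shifts was not tested. Single-sex fits hold 3 libraries a group, and Itga7 had 22 and Itga5 151 counts in the shallowest library.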
